A study of Mus musculus with 6 samples.

Results

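The 26S proteasome genes were followed across A375 human melanoma cells carrying guide RNAs against ABCE1, against YAE1 or against control sequences. The set was fixed by name as the constitutive subunits PSMA1 to PSMA7, PSMB1 to PSMB7, PSMC1 to PSMC6, PSMD1 to PSMD8 and PSMD11 to PSMD14. All 32 were found by their Ensembl identifiers among the 62492 rows of the gene table, and all 32 had a mean of at least 1 FPKM over the 6 libraries, the limit used for testing. FPKM counts fragments relative to gene length and library size. Comparisons of level between different genes rest on the gene lengths used, which the sources used here do not give. Genome coordinates of the genes were not analysed here.

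The 26S proteasome degrades proteins that carry ubiquitin chains, and its peptide products are a source of the ligands of MHC class I molecules. Its 20S core is a stack of outer alpha rings (PSMA genes), which gate the entry, and inner beta rings (PSMB genes), where PSMB5, PSMB6 and PSMB7 hold the active sites. The 19S regulatory particle has a base, with a ring of ATPases (PSMC genes) that unfold substrates, and a lid of PSMD subunits, in which PSMD14 removes the ubiquitin chains. PSMD5 is a chaperone of base assembly and is not part of the finished particle. The subunits are incorporated in fixed numbers, and in mammalian cells their transcription is raised together by NFE2L1 when proteasome activity is lost.

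The controls carried guides against LacZ or Luciferase, and all 3 groups (2 libraries each) received lentivirus with Cas9, puromycin at 10 µg/mL, and 7 days of culture after selection. ABCE1 is an iron-sulfur ATPase that recycles ribosomes, and YAE1 works with LTO1 in supplying its cluster. Per the titles the libraries are numbered 1 and 2 within a group. Whether the number marks a separate guide or culture is not stated, so the tests reflect the scatter of the libraries at hand, and that scatter may be technical. The genotype field of the second library of each targeted group names Abce2 or Yae2, and the organism field names mouse for this human line, so groups were taken from the titles. The table pairs no identifier with a symbol, so the transcripts of ABCE1 and YAE1 and the melanocyte markers were not analysed here, and neither the loss of the targets nor the identity of the cells was checked. Immunoproteasome subunits, assembly factors and NFE2L1 were not analysed here for the same reason.

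The recovered depth was 15713011 to 18399718 fragments per library. The members held 87.0 (PSMA2) to 10221 (PSMB4) fragments in a library, which gives a counting error of 1.04% for PSMB4 and 9.56% for PSMA2. The YAE1 libraries lay further apart than the others: the median coefficient of variation of the members was 4.52% there, against 1.66% in the controls and 1.91% in the ABCE1 libraries. Replicate 1 was the higher of its pair for 25 of 32 members in the YAE1 libraries, 22 in the controls and 20 in the ABCE1 libraries.

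The FPKM values of the subunits were unequal in every group. In the controls PSMB4, a beta subunit without an active site, was highest at 245 ± 6.17 FPKM (SD, n = 2). PSMA7 of the outer ring followed at 185 ± 2.76 FPKM and the active-site subunit PSMB7 at 179 ± 1.26 FPKM, and these 2 differed by more than their spread. By the mean over the 6 libraries, 6 members stood at 100 FPKM or more, 8 at 50 to 100, 15 at 10 to 50 and 3 under 10. PSMB4 lay at the 99.3 percentile of the 12578 genes tested and PSMC6, at 18.9 ± 0.207 FPKM in the controls, at the 76.6 percentile. The order of the members was largely kept, with Spearman's rho of 0.979 between controls and ABCE1 libraries and 0.985 between controls and YAE1 libraries (32 genes within the same library totals, a description).

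The members under 10 FPKM were all alpha subunits. PSMA1 was listed at 6.61 ± 0.112, PSMA2 at 1.34 ± 0.0775 and PSMA6 at 1.13 ± 0.0919 FPKM in the controls (SD, n = 2 each), while the other alpha subunits stood between 33.4 (PSMA5) and 185 FPKM (PSMA7). How fragments were assigned where gene models overlap or near-identical copies exist is not given in the sources used here. Levels of these 3 genes, and of any member with copies elsewhere in the genome, are therefore uncertain.

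**Figure D1:**
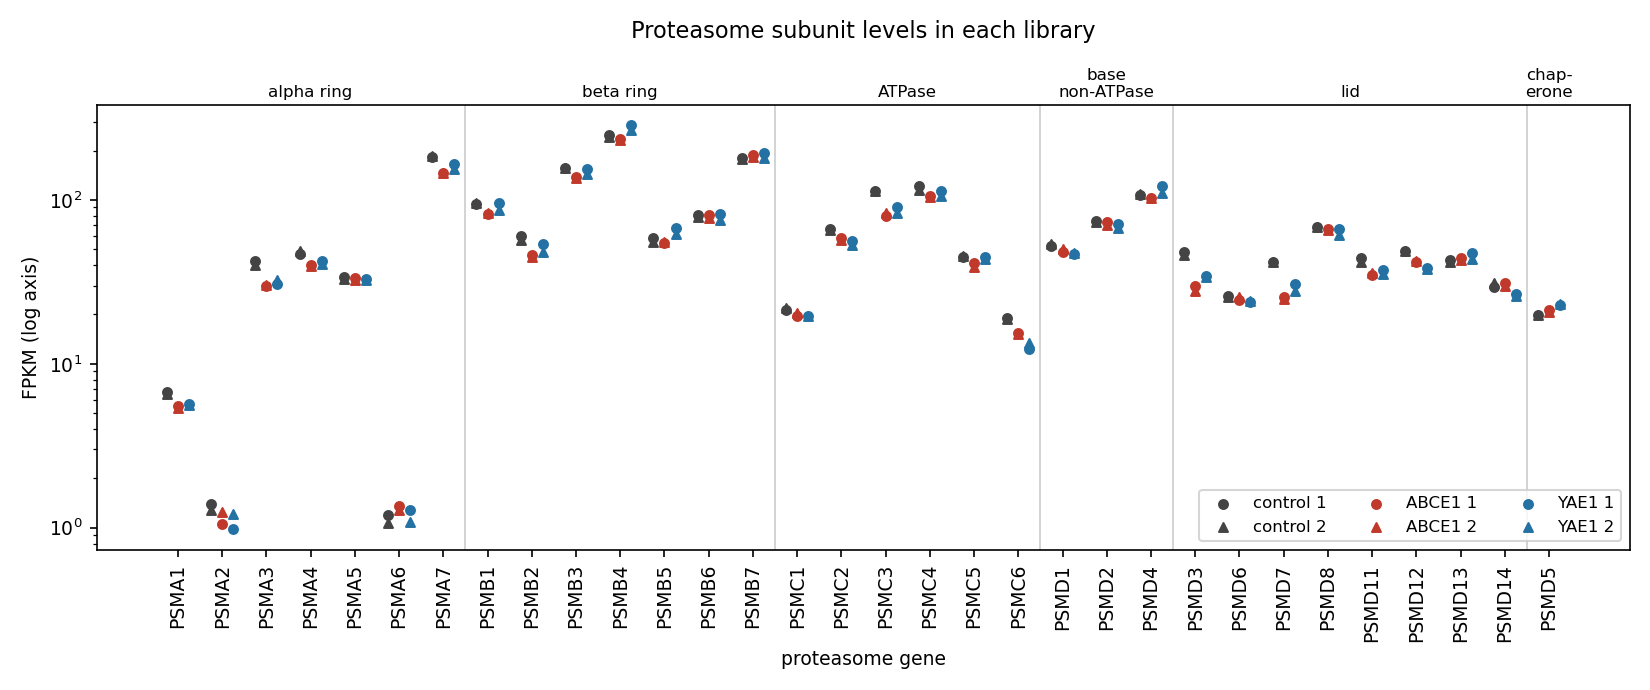
FPKM of the 32 proteasome genes (horizontal axis, ordered by role) in each of the 6 libraries, on a log axis; circles are replicate 1 and triangles replicate 2, in grey for control, red for ABCE1 and blue for YAE1 guides. PSMA1, PSMA2 and PSMA6 lie under 10 FPKM in all libraries, and PSMD7 and PSMD3 show the widest gaps between the controls and the ABCE1 libraries.

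The first comparison asked how proteasome transcripts stood with ABCE1 guides relative to control guides. With ABCE1 guides 16 of 32 members fell, 0 rose and 16 did not pass the test (limma on log2(FPKM + 1), Benjamini-Hochberg adjusted over all genes, threshold 0.05). Of all 12578 genes tested, 20.4% were called lower and 37.5% higher. The falls ran through both particles, with 4 of 7 alpha subunits, 3 of 7 beta subunits, 5 of 6 ATPases and 4 of 8 lid subunits called lower. The lid subunits PSMD7 and PSMD3 changed most, to 0.602 and 0.614 of their control means. At an unadjusted p under 0.05 there were still 0 members higher, while at least the 37.5% of all genes called above pass that looser rule. Limma's voom on recovered fragments called 0 members higher and 16 lower, beside 39.6% and 21.7% of all genes.

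The median log2 difference of the members was -0.14, beside 0.098 over all genes tested and 0.046 over 4555 abundant genes averaging 10 FPKM or more, a limit chosen after the values were seen. Of these abundant genes 29.1% were called lower, and 15 of the 29 members among them. Scaling moved these counts. Centring each library on its median gene moved the median of all genes by -0.14 and gave 25 members lower and 0 higher, with 31.1% of all genes lower, and the share of higher among all calls went from 64.8% to 45.5%. Quantile normalization gave 14 members lower and 2 higher, with 28.4% of all genes lower and 49.0% of all calls higher. Without control replicate 1, or without ABCE1 replicate 2, fewer members and fewer of all genes were called lower. Both times PSMA1, PSMB1, PSMB3, PSMC2, PSMC4 and PSMC5 lost the call. PSMB1, PSMB3 and PSMC4 also lost it without control replicate 2 or ABCE1 replicate 1, and PSMC5 without control replicate 2. FPKM are shares of a library made from many cells, so a lower value can also come with a rise of other transcripts. Such a rise, fewer cells with the transcript and less RNA per cell cannot be told apart.

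The second comparison set the YAE1 libraries against the controls. Here 14 of 32 members fell, 3 rose and 15 did not pass (limma, adjusted over all genes), beside 17.6% of all genes called lower and 34.2% called higher. The falls were 4 of 7 alpha subunits, 1 of 7 beta subunits (PSMB2), 3 of 6 ATPases, 1 of 3 other base subunits (PSMD1) and 5 of 8 lid subunits. PSMC6, PSMD7 and PSMD3 changed most, to 0.682, 0.698 and 0.729 of the control means. The members that rose were PSMB4, PSMB5 and PSMD5, by 13.2%, 13.4% and 16.0% in mean FPKM.

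The median log2 difference of the members was -0.12 with YAE1 guides, beside 0.096 over all genes. Among the abundant genes 26% were called lower, and 13 of the 29 members. Centring on the median gene moved the median of all genes by -0.097 and gave 20 members lower and 0 higher, with 24.8% of all genes lower, while the share of higher among all calls went from 66.0% to 49.1%. Quantile normalization kept the 3 rises and added PSMB7, with 52.2% of all calls higher. Leaving out control replicate 1 or 2 gave fewer members lower and fewer higher. Without YAE1 replicate 1 more members were lower and fewer higher, and without YAE1 replicate 2 fewer were lower and more higher. Each time fewer of all genes tested were called. The median log2 difference of the members was -0.11 and -0.12 without control replicate 1 or 2, and -0.14 and -0.11 without YAE1 replicate 1 or 2. The controls are shared by both comparisons.

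**Figure D2:**
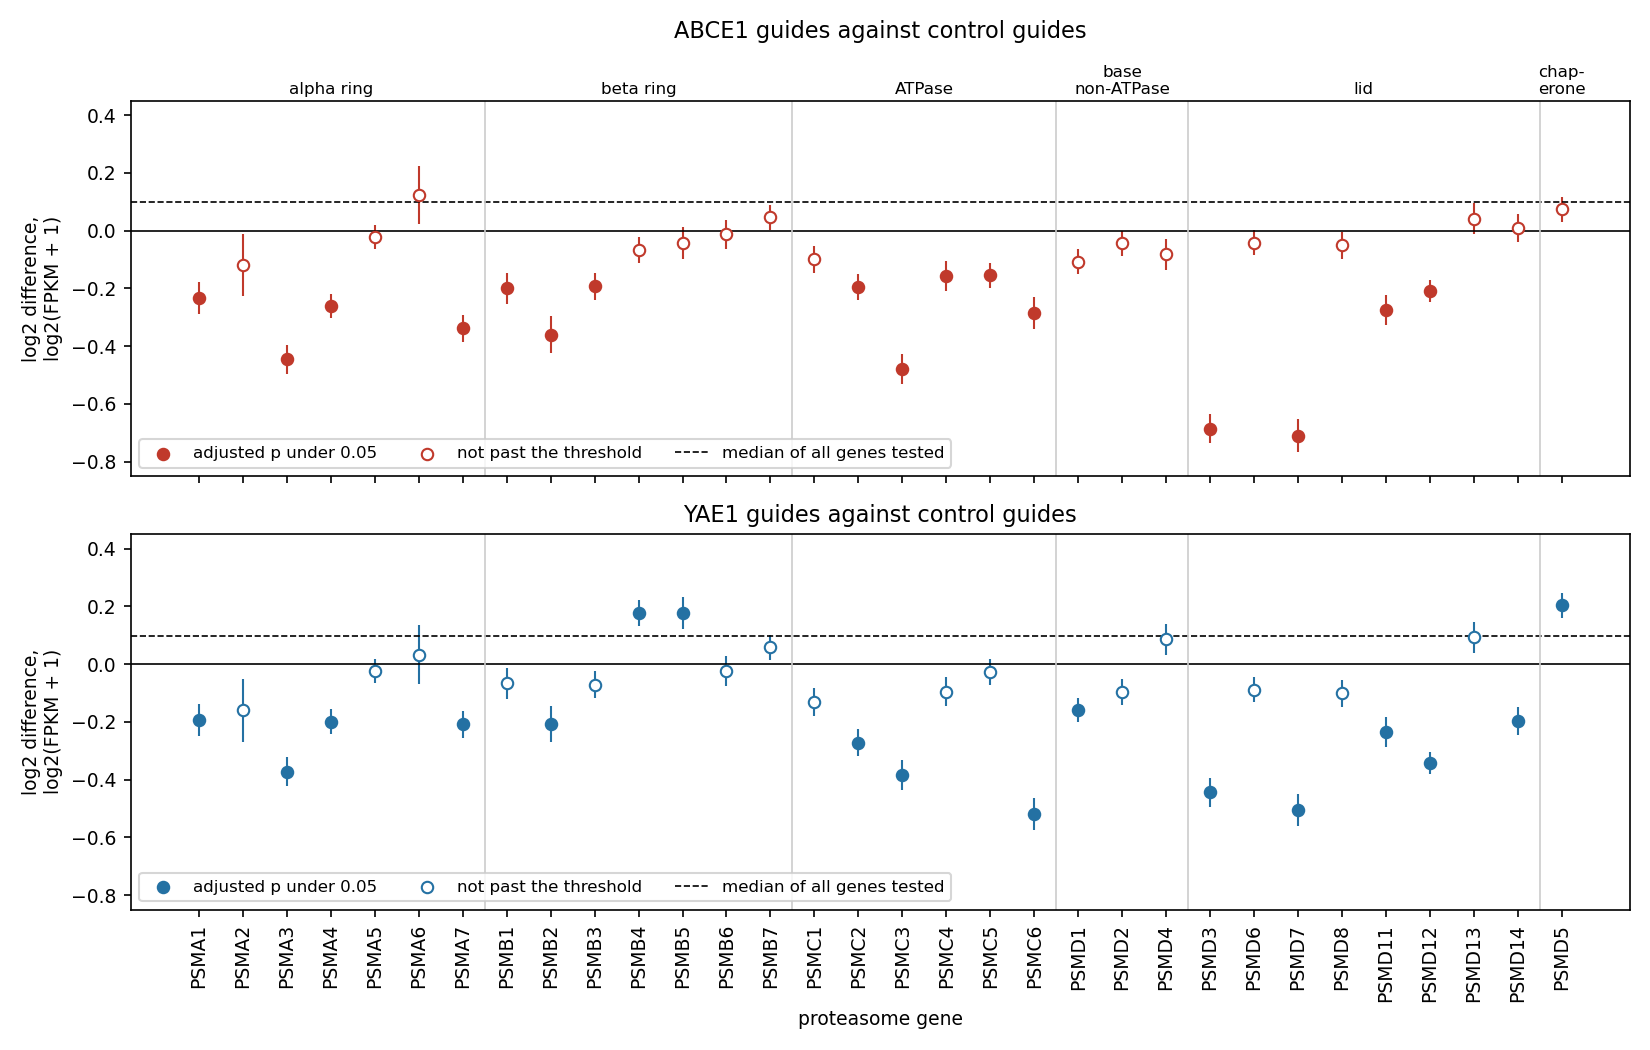
Log2 difference on the log2(FPKM + 1) scale of each proteasome gene for ABCE1 guides (top) and YAE1 guides (bottom) against the same 2 control libraries; bars are the standard error, filled points passed an adjusted p of 0.05 (limma) and the dashed line is the median of all 12578 genes tested. PSMD7 and PSMD3 lie lowest in the top panel, and PSMB4, PSMB5 and PSMD5 lie above 0 as filled points in the bottom panel only.

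Among the subgroups the lid had the widest range of log2 differences in both comparisons with control. PSMD7 (ENSG00000103035), the inactive partner with which PSMD14 forms the deubiquitinating dimer, stood at 41.5 and 42.0 FPKM in the controls, 25.4 and 24.9 with ABCE1 guides, and 30.6 and 27.7 with YAE1 guides. Both targeted groups lay below both controls, and the ABCE1 libraries lay lowest. The log2 difference was -0.71 ± 0.056 for ABCE1 guides (SE, limma adjusted p = 0.00011) and -0.51 ± 0.056 for YAE1 guides (limma adjusted p = 0.00057). PSMD14 itself (ENSG00000115233), the catalytic metalloprotease of that dimer, stood at 29.5 and 31.1 FPKM in the controls, 31.2 and 29.8 with ABCE1 guides, and 26.6 and 26.01 with YAE1 guides. The ABCE1 libraries overlapped the controls, with a log2 difference of 0.0084 (95% interval -0.11 to 0.12). The YAE1 libraries lay below all the others, with a log2 difference of -0.20 ± 0.048 (limma adjusted p = 0.014). That call was lost without control replicate 2 (limma adjusted p = 0.094).

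PSMD3 (ENSG00000108344), a scaffold subunit of the lid, had 47.8 and 46.0 FPKM in the controls, 29.9 and 27.7 with ABCE1 guides and 34.3 and 34.1 with YAE1 guides. The 3 groups did not overlap. It fell by 0.69 ± 0.051 on the log2 scale with ABCE1 guides (limma adjusted p = 8.9e-05) and by 0.44 ± 0.051 with YAE1 guides (limma adjusted p = 0.00067). PSMD12 (ENSG00000197170), another scaffold subunit, had 48.7 FPKM in both controls, 41.6 and 42.5 with ABCE1 guides and 38.3 and 38.1 with YAE1 guides. Here the YAE1 libraries were the lowest, with log2 differences of -0.21 ± 0.039 for ABCE1 guides (limma adjusted p = 0.0037) and -0.34 ± 0.039 for YAE1 guides (limma adjusted p = 0.00062). PSMD11, which clamps the lid to the core, fell to 0.823 and 0.846 of the control mean, and its YAE1 call was lost without control replicate 1 (limma adjusted p = 0.067). PSMD6, PSMD8 and PSMD13, the remaining lid subunits, did not pass in either comparison, with mean FPKM of 0.932 to 1.07 of the controls.

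Among the ATPases, PSMC3 and PSMC6 moved most. PSMC3 (ENSG00000165916) had 114 and 113 FPKM in the controls, 79.4 and 83.4 with ABCE1 guides and 90.7 and 83.3 with YAE1 guides. The targeted groups lay below the controls and overlapped each other. The log2 difference was -0.48 ± 0.052 for ABCE1 guides (limma adjusted p = 0.00039) and -0.38 ± 0.052 for YAE1 guides (limma adjusted p = 0.0013). PSMC6 (ENSG00000100519) had the lowest FPKM of the ATPases. It stood at 19.1 and 18.8 FPKM in the controls, 15.5 and 15.2 with ABCE1 guides and 12.3 and 13.5 with YAE1 guides. Its order was the reverse of that of PSMD7, with the YAE1 libraries lowest: -0.28 ± 0.055 for ABCE1 guides (limma adjusted p = 0.0043) and -0.52 ± 0.055 for YAE1 guides (limma adjusted p = 0.00047). PSMC2 fell to 0.872 and 0.826 of the control mean. PSMC4 and PSMC5 were called lower with ABCE1 guides, each at 0.896 of the control mean, and did not pass with YAE1 guides (0.935 and 0.981). PSMC1 passed in neither comparison (limma adjusted p = 0.11 and 0.054). It was called lower in both with centring (limma adjusted p = 0.0053 and 0.0077) and with quantile normalization (0.025 and 0.039). With voom it was called lower with YAE1 guides only (limma adjusted p = 0.048).

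The base also holds subunits without ATPase activity. PSMD4 (ENSG00000159352), a receptor for ubiquitin chains, had 108 and 109 FPKM in the controls, 102 and 103 with ABCE1 guides, and 121 and 109.6 with YAE1 guides. It passed in neither comparison (log2 differences -0.082 and 0.086, limma adjusted p = 0.23 and 0.22), and the spread within the YAE1 group was wider than the gap between controls and ABCE1 libraries. PSMD1 and PSMD2, the largest subunits of the particle, stood at 0.927 and 0.970 of the control mean with ABCE1 guides. With YAE1 guides they stood at 0.893 and 0.935, where PSMD1 passed (limma adjusted p = 0.019). That call was lost without control replicate 1 (limma adjusted p = 0.061), without control replicate 2 (0.12), with no filter (0.051) and with quantile normalization (0.058).

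The chaperone PSMD5 (ENSG00000095261) was the one member of the regulatory particle set that rose. It stood at 19.9 FPKM in both controls, 21.3 and 20.7 with ABCE1 guides, and 22.9 and 23.3 with YAE1 guides, so the 3 groups did not overlap. With YAE1 guides it rose by 0.20 ± 0.043 on the log2 scale (limma adjusted p = 0.0078), a call lost after centring on the median gene (limma adjusted p = 0.084). With ABCE1 guides the difference was 0.074 (95% interval -0.03 to 0.18, limma adjusted p = 0.18).

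In the alpha ring PSMA1, PSMA3, PSMA4 and PSMA7 fell in each comparison with control. PSMA3 fell to 0.728 of the control mean with ABCE1 guides and 0.767 with YAE1 guides, PSMA7 to 0.790 and 0.866, PSMA4 to 0.831 and 0.868, and PSMA1 to 0.828 and 0.855. With YAE1 guides PSMA4 and PSMA7 lost the call without control replicate 2 (limma adjusted p = 0.059 and 0.066), PSMA7 also with no filter (0.052), and PSMA1 did without either control (0.12 and 0.076) or YAE1 replicate 2 (0.067). PSMA5 stood at 0.984 and 0.982 of the control mean (95% intervals of the log2 difference -0.12 to 0.08 and -0.12 to 0.07). PSMA2 and PSMA6, with 87.0 to 146.5 fragments per library, passed in neither comparison, and their intervals were wide (for PSMA6 with ABCE1 guides, -0.12 to 0.36).

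With ABCE1 guides no beta subunit with an active site passed the test. PSMB5 (ENSG00000100804), which carries the chymotrypsin-like activity, had 58.3 and 55.5 FPKM in the controls, 54.8 and 55.7 with ABCE1 guides, and 67.5 and 61.5 with YAE1 guides. Controls and ABCE1 libraries overlapped, and the YAE1 libraries lay above both. The log2 difference was -0.042 for ABCE1 guides (95% interval -0.17 to 0.09) and 0.18 ± 0.055 for YAE1 guides (limma adjusted p = 0.034). The YAE1 call was lost in 8 of 14 alternatives, among them centring (limma adjusted p = 0.31) and leaving out any 1 of 5 libraries, both controls, both ABCE1 libraries or YAE1 replicate 1 (limma adjusted p = 0.061 to 0.17).

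PSMB6 (ENSG00000142507), with the caspase-like activity, had 80.8 and 79.0 FPKM in the controls, 80.5 and 77.9 with ABCE1 guides, and 81.8 and 75.3 with YAE1 guides, and all 3 groups overlapped. PSMB7 (ENSG00000136930), with the trypsin-like activity, had 180.01 and 178 FPKM in the controls, 187 and 183 with ABCE1 guides, and 193 and 180.4 with YAE1 guides. The PSMB7 values of the targeted groups lay just above the controls, by 0.046 and 0.058 on the log2 scale, and did not pass (limma adjusted p = 0.41 and 0.31). Quantile normalization called PSMB7 higher in both (0.21, limma adjusted p = 0.0011, and 0.13, limma adjusted p = 0.011).

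Of the beta subunits without an active site, PSMB1, PSMB2 and PSMB3 fell with ABCE1 guides, to 0.869, 0.775 and 0.874 of the control means, and PSMB2 fell with YAE1 guides, to 0.865. The PSMB2 call with YAE1 guides was lost in 8 of 14 alternatives, without each of the 5 libraries other than YAE1 replicate 1 among them (limma adjusted p = 0.052 to 0.17). PSMB4 (ENSG00000159377) had 249 and 241 FPKM in the controls, 237 and 231 with ABCE1 guides, and 286 and 269 with YAE1 guides. The ABCE1 libraries lay lowest and the YAE1 libraries highest, without overlap. With YAE1 guides PSMB4 rose by 0.18 ± 0.045 on the log2 scale (limma adjusted p = 0.016), a call lost after centring (limma adjusted p = 0.23), with no filter (0.081) and without control replicate 1 or 2 (0.053 and 0.11). With ABCE1 guides the difference was -0.066 (limma adjusted p = 0.25), and quantile normalization turned it to 0.16 (limma adjusted p = 0.004).

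Ratios between members of the same library are free of any factor that scales a whole library, though not of quantile normalization. They were not tested and are given as values. The mean FPKM of the 14 core subunits over that of the 18 members of the regulatory particle (PSMD5 included) was 1.55 in both controls, 1.61 and 1.60 with ABCE1 guides and 1.72 and 1.70 with YAE1 guides. The groups did not overlap, and the mean exceeded that of the controls by 3.63% in the ABCE1 libraries and by 10.4% in the YAE1 libraries. The core stood at a mean of 84.9 ± 0.852 FPKM in the controls and 83.7 ± 4.09 FPKM with YAE1 guides, while the regulatory particle went from 54.8 ± 0.351 to 48.9 ± 1.85 FPKM (SD, n = 2 each). With ABCE1 guides both were lower, the core at 76.8 ± 0.665 and the regulatory particle at 47.8 ± 0.186 FPKM. Such means weigh the members with the highest FPKM most. PSMB4, the highest, stood at 245 FPKM in the controls and 277 FPKM with YAE1 guides. By log2 difference 10 of the 14 core subunits lay below 0 with YAE1 guides.

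The other ratios were chosen after the values were seen. Alpha over beta subunits went from 0.358 and 0.367 in the controls to 0.311 and 0.315 with ABCE1 guides and 0.300 and 0.309 with YAE1 guides. Active-site over other beta subunits went from 0.757 and 0.758 to 0.854 and 0.851 with ABCE1 guides, and to 0.773 in both YAE1 libraries. PSMD7 over PSMD14 went from 1.41 and 1.35 to 0.815 and 0.837 with ABCE1 guides, and to 1.15 and 1.06 with YAE1 guides. The ratio was thus lower in both targeted groups than in the controls, and lowest with ABCE1 guides. Which partner is the higher within a group depends on the gene lengths behind FPKM, which the sources used here do not give.

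**Figure D3:**
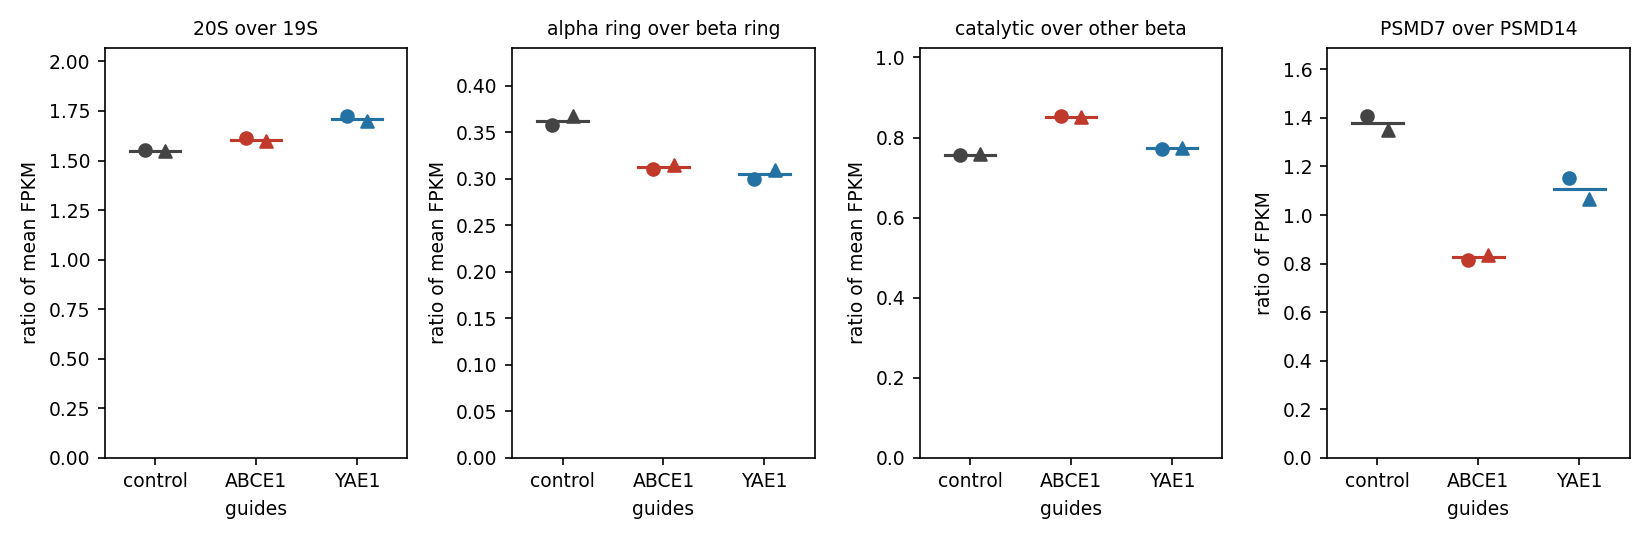
Ratios of FPKM within each library for control, ABCE1 and YAE1 guides (circles replicate 1, triangles replicate 2, lines the mean of 2), with all axes starting at 0. PSMD7 over PSMD14 is above 1.35 in the controls and under 0.84 in the ABCE1 libraries, and active-site over other beta subunits is highest in the ABCE1 libraries.

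All members together made up 0.865% and 0.852% of the summed FPKM of the control libraries, 0.773% and 0.766% with ABCE1 guides, and 0.794% and 0.766% with YAE1 guides. Both targeted groups lay below both controls and overlapped each other. The summed FPKM of all genes, by which the share divides, was itself higher in the YAE1 libraries. It was 252912 and 253604 in the controls, 251809 and 251572 with ABCE1 guides, and 266479 and 259523 with YAE1 guides.

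The third comparison set the YAE1 libraries directly against the ABCE1 libraries. With YAE1 guides 4 members were higher (PSMB4, PSMD3, PSMB5 and PSMD7) and 3 lower (PSMC6, PSMD14 and PSMD12), and 25 did not pass (limma, adjusted over all genes), beside 15.3% of all genes called higher and 18.7% called lower. The median log2 difference of the members was 0.045, beside -0.014 over all genes, and centring moved the share of higher among all calls from 45.1% to 56.0%. PSMB4 differed by 0.24 ± 0.045 (limma adjusted p = 0.0099), PSMD3 by 0.24 ± 0.051 (limma adjusted p = 0.014), PSMB5 by 0.22 ± 0.055 (limma adjusted p = 0.025) and PSMD7 by 0.20 ± 0.056 (limma adjusted p = 0.032) on the log2 scale. In the other direction PSMC6 differed by -0.24 ± 0.055 (limma adjusted p = 0.019), PSMD14 by -0.20 ± 0.048 (limma adjusted p = 0.02) and PSMD12 by -0.13 ± 0.039 (limma adjusted p = 0.038).

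These differences are of 2 kinds. PSMD3 and PSMD7 fell in both targeted groups and less with YAE1 guides, and PSMC6 and PSMD12 fell in both and further with YAE1 guides. PSMB4 and PSMB5 were called higher than control with YAE1 guides alone, and PSMD14 lower with YAE1 guides alone. PSMD4 missed the threshold, at 0.17 (95% interval 0.04 to 0.29, limma adjusted p = 0.0501), and passed with a filter at 5 FPKM, with centring, with voom and without YAE1 replicate 2 (limma adjusted p = 0.0091). PSMB6, PSMB7 and PSMD5 did not pass either, with intervals of -0.13 to 0.11, -0.09 to 0.12 and 0.03 to 0.23. PSMD5 passed with centring (limma adjusted p = 0.026) and with quantile normalization (0.030). The calls rested on few libraries. Leaving out ABCE1 replicate 1, ABCE1 replicate 2 or YAE1 replicate 1 gave fewer members called in both directions. Leaving out YAE1 replicate 2 gave more members higher and fewer lower. Each time fewer of all genes tested were called as well. The median log2 difference of the members was then 0.056, 0.041, 0.016 and 0.071, in that order. With no filter on low genes 0 members were called in either direction, beside 2.37% of 38269 genes called higher and 3.09% called lower.

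**Figure D4:**
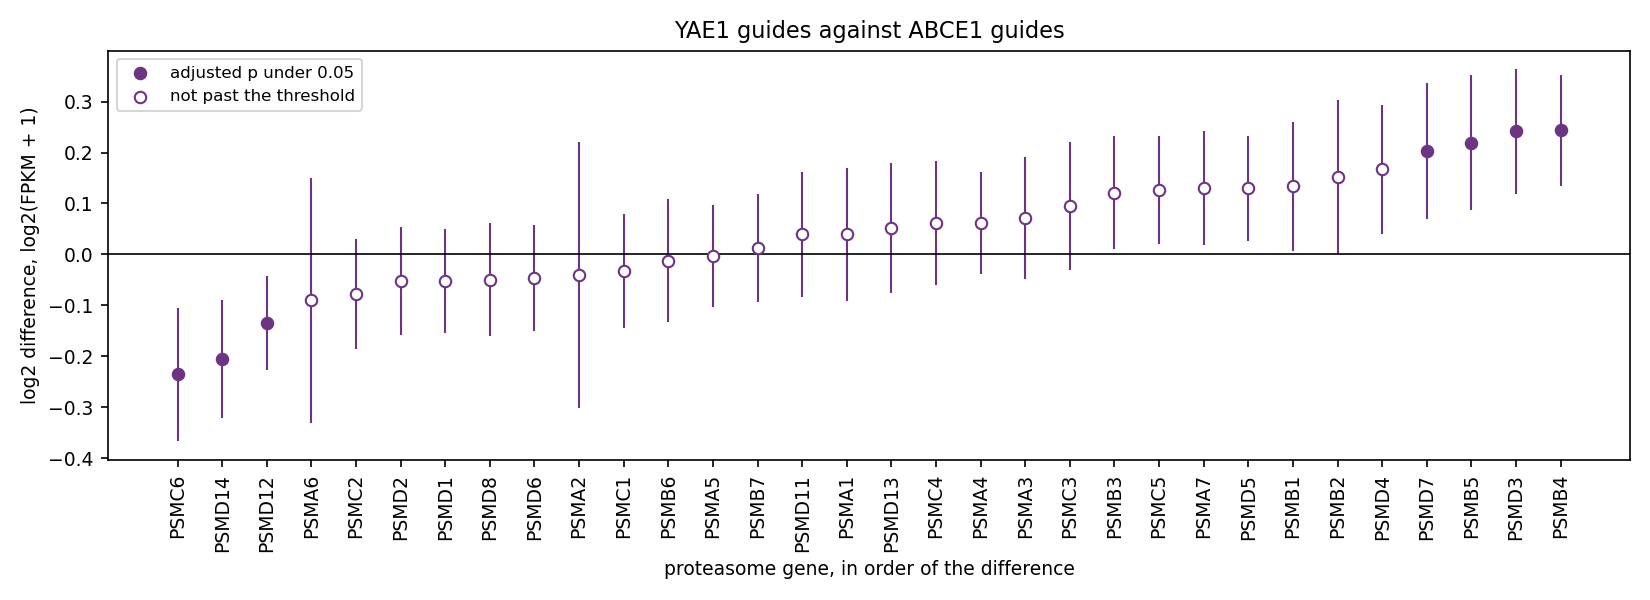
Log2 difference of each proteasome gene between YAE1 and ABCE1 libraries (2 each) on the log2(FPKM + 1) scale, in order of size, with 95% intervals from limma; filled points passed an adjusted p of 0.05. PSMC6, PSMD14 and PSMD12 are filled at the left, and PSMD7, PSMB5, PSMD3 and PSMB4 at the right.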

How the data were processed

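The authors deposited 1 table of FPKM values with 62492 Ensembl identifiers and a column per library. GRCh37 is named in the submitters' processing notes. The sources used here give no aligner, counting software or gene annotation. The reference tables held here are for mouse (0 identifiers matched), so the members were matched by identifier and no sequence was printed. The members and lists were chosen with earlier results of these data known.

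The 12578 genes averaging 1 FPKM or more over the libraries were tested on log2(FPKM + 1), a scale that understates changes of low genes, with limma 3.58.1 in R 4.3.3 (1 fit of the group means to the 6 libraries, trended eBayes, adjustment by Benjamini-Hochberg over all genes, threshold 0.05, 3 residual degrees of freedom). Values in every library are given for PSMB5, PSMB6, PSMB7, PSMD4, PSMD5 and PSMD14 by role, and for the 3 largest called rises and falls of each comparison. Other members are given by ratio or range. Fragment numbers were worked out from the common step of a gene's FPKM values (38264 of 38269 genes above 0 came out as multiples of 0.5 fragments within 0.0001). They are known up to a factor that all libraries share for a gene, and counting errors cover counting only. Replicates differed by more than counting noise (chi-square per gene 2.54 in controls, 2.87 with ABCE1 guides and 5.72 with YAE1 guides). Alternatives were another pseudocount (0.1), other filters, centring, quantile normalization, voom on recovered fragments, the 4 compared libraries alone, a replicate block and leaving out each library.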

Additional observations from a re-analysis of the deposited data

Results flagged for a closer look

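In 7 members the change from control differed between both targeted groups, tested directly as YAE1 against ABCE1 libraries (limma, adjusted over all genes). PSMB4 (0.24), PSMB5 (0.22), PSMD3 (0.24) and PSMD7 (0.20) were higher with YAE1 guides on the log2 scale, and PSMC6 (-0.24), PSMD14 (-0.20) and PSMD12 (-0.13) were lower. That is 4 and 3 of 32 members, beside 15.3% of all genes called higher and 18.7% called lower, so the members were not called more often than genes at large. None of the 7 passed in all 14 alternatives: PSMD3 lost the call in 2, PSMB4 in 3, PSMB5, PSMC6 and PSMD14 in 4, PSMD7 in 7 and PSMD12 in 10. Groups of 2 libraries are too small to look for outlying samples.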

How the results depend on the processing

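Of the members called lower, 10 of 16 with ABCE1 guides kept the call in all 14 alternatives (PSMA3, PSMA4, PSMA7, PSMB2, PSMC3, PSMC6, PSMD3, PSMD7, PSMD11 and PSMD12), and 7 of 14 with YAE1 guides (PSMA3, PSMC2, PSMC3, PSMC6, PSMD3, PSMD7 and PSMD12). None of the 3 rises with YAE1 guides did. Centring on the median gene gave 25 members lower with ABCE1 guides (median -0.28), 0 higher with YAE1 guides (median -0.21), and 8 higher in YAE1 against ABCE1 libraries (median 0.087). Quantile normalization gave 2 members higher with ABCE1 guides and a median of -0.10, and turned PSMB4 with ABCE1 guides to 0.16. With no filter 1 member was higher with YAE1 guides, beside 8.82% of all genes. In YAE1 against ABCE1 libraries 0 were then higher and 0 lower, beside 2.37% and 3.09% of all genes. Leaving out 1 library gave 10 to 16 lower with ABCE1 guides, 8 to 19 lower and 1 to 5 higher with YAE1 guides, and 0 to 10 higher and 0 to 2 lower in YAE1 against ABCE1 libraries. A group left with 1 library was assumed to vary like the others. The cause of these changes was not tested.

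The ratio of core to regulatory particle in controls, ABCE1 and YAE1 libraries was 0.836, 0.860 and 0.893 with geometric means, 1.49, 1.55 and 1.66 without PSMD5, and 1.96, 2.03 and 2.16 without PSMA1, PSMA2 and PSMA6, an alternative chosen after seeing the data, with the same order of groups each time. The summed FPKM of the members (2174 in controls, 1936 with ABCE1 guides, 2053 with YAE1 guides) became 1392, 1229 and 1261 as 32 geometric means, and 2154 and 1915 in controls and ABCE1 libraries without PSMD5.

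The replicate numbers pair no samples by the labels, and differences between replicates correlated at -0.05 to -0.01 across groups. With a replicate block the counts were 16 lower with ABCE1 guides, 14 lower and 3 higher with YAE1 guides, and 4 higher and 2 lower between them. Depth limits PSMA2 and PSMA6 most, with counting errors of 9.56% and 8.6%.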
